A study of Disanthus cercidifolius subsp. longipes with 9 samples.

Results

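Transcript clusters of the growth hormones gibberellin, brassinosteroid and cytokinin were examined in leaves of Disanthus cercidifolius var. longipes, a deciduous shrub. A cluster was taken when the first full name of its Swiss-Prot match held gibberellin, DELLA, brassinosteroid, BRASSINAZOLE, BES1, cytokinin, Two-component response regulator ARR or ORR, or Histidine-containing phosphotransfer. This gave 41 of 24385 clusters: 17 of gibberellin, 6 of brassinosteroid and 18 of cytokinin. The names were given by likeness to proteins of other species, mostly Arabidopsis, rice, pea and tomato.

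Leaves were sequenced as mRNA at 3 stages with 3 libraries each: young leaves (F1), leaves close to mature (F2) and mature leaves (F3). The labels place the leaves of all 3 stages at the tips of the branches. All were untreated leaves of one taxon, picked from shrubs raised from cuttings in a nursery. The labels date the stages to July 20, 23 and 26, whereas the study's methods place them a month apart in spring and early summer, so the time between stages is uncertain. The sources do not say which shrub gave which library, so p-values measure only the spread between these libraries.

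Gibberellin promotes stem and leaf growth. The hormone is finished by 20-oxidases and 3-oxidases and switched off by 2-oxidases. When it binds a GID1 receptor, the DELLA proteins that hold growth back are destroyed. In Arabidopsis the bioactive hormone lowers the transcripts of 20-oxidase, 3-oxidase and GID1 genes and raises those of 2-oxidase genes. Brassinosteroids are steroids that bind the receptor kinase BRI1 at the cell surface and act through transcription factors of the BES1/BZR1 family on cell expansion and on xylem. Cytokinins promote cell division and delay leaf ageing. They are set free by LOG enzymes and destroyed by cytokinin dehydrogenases, and their signal passes from histidine kinases through phosphotransfer proteins to response regulators. Type-B response regulators are transcription factors that carry the signal, and type-A regulators dampen it and are themselves induced by cytokinin.

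Levels are given as FPKM, fragment counts divided by transcript length and by sequencing depth. FPKM were used as deposited. In some clusters, among them Cluster-42261.0 and Cluster-46556.0, they do not follow from the counts and the deposited length, so levels of different clusters are not strictly comparable. The depth implied by both measures was 18.4 M to 27.5 M fragments per library. The table holds those clusters that the authors had called in at least 1 comparison, so each of the 41 had already been selected for a difference, and hormone genes outside it were not analysed here. It took 52.4% to 53.5% of the fragments at F1, 51.9% to 52.2% at F2 and 42.7% to 43.3% at F3. Transcripts of the photosynthetic tissue of leaves dominated: 47 clusters of Rubisco small subunit and chlorophyll-binding proteins summed to 70972 to 74877 FPKM at F1, 102987 to 104481 at F2 and 34157 to 35929 at F3. They included 1 cluster at 0 at F3. Transcripts of other tissues also moved with stage. Their clusters are counted as lower or higher by the call defined in the next paragraph. The 7 dividing-cell clusters (mitotic cyclins) summed to 9.36 to 9.92, 1.28 to 1.65 and 0.78 to 1.2 FPKM at F1, F2 and F3. Of these, 7 of 7 were lower at F2 than at F1 (18.8% of all clusters), and 2 were at 0 at F3. The 7 xylem clusters (secondary-wall cellulose synthases and XCP proteases) summed to 74.5 to 77.7, 25.2 to 28.9 and 9.78 to 9.98. Of these, 6 of 7 were lower at F3 than at F1 and 1 was higher (34.7% lower and 35.0% higher over all clusters). The 7 senescence clusters went from a sum of 20.1 to 26.0 at F1 to 206.6 to 223.3 at F3. Of these, 5 of 7 were higher at F3 than at F1 and 1 was lower (35.0% higher and 34.7% lower over all clusters). At F2, 2 of the 7 were at 0, and at F3 1 was. The 1 guard-cell cluster (FAMA) had 9.13 to 10.5 FPKM at F1 and 0.04 to 0.33 at F3. The 14 meristem clusters were of the knotted-1-like and CLE families and summed to 50.5 to 57.4, 29.7 to 32.5 and 48.9 to 53.5 FPKM. From F1 to F3, 9 of them fell and 4 rose (34.7% lower and 35.0% higher over all clusters). The defining meristem genes SHOOT MERISTEMLESS, WUSCHEL and CLAVATA3 matched 0 clusters. The part of these tissues in the hormone results was not tested. In bulk leaves, fewer cells of a type and less RNA per cell cannot be told apart.

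The 3 stages were fitted together in edgeR over all 24385 clusters and each pair was tested by quasi-likelihood, with folds given as later over earlier stage. A cluster was called, and is said to rise or fall, where the fold reached 2 and p, adjusted after Benjamini and Hochberg, was below 0.05. From F1 to F2, the 41 hormone clusters gave 3 rises and 13 falls, 39.0% in all, against 40.8% of all clusters called. From F1 to F3 there were 14 rises and 17 falls, 75.6% against 69.7%, and from F2 to F3 18 rises and 15 falls, 80.5% against 65.3%. The median log2 fold change of the 41 was -0.54, -0.84 and -0.15 in the same order, beside 0.17, 0.00 and -0.37 over all clusters. The share called was thus close to the background from F1 to F2 and from F1 to F3 and above it from F2 to F3. FPKM of the libraries did not overlap between stages in 29 of the 41 from F1 to F2 (64.4% of all clusters), in 37 from F1 to F3 (81.0%) and in 33 from F2 to F3 (78.9%). Of the 41 clusters, 39 were called in at least 1 comparison, and 15 stayed under a mean of 5 FPKM at every stage. Every cluster of the table had been called by the authors in at least 1 comparison, so the first count is no result about hormone genes.

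**Figure D1:**
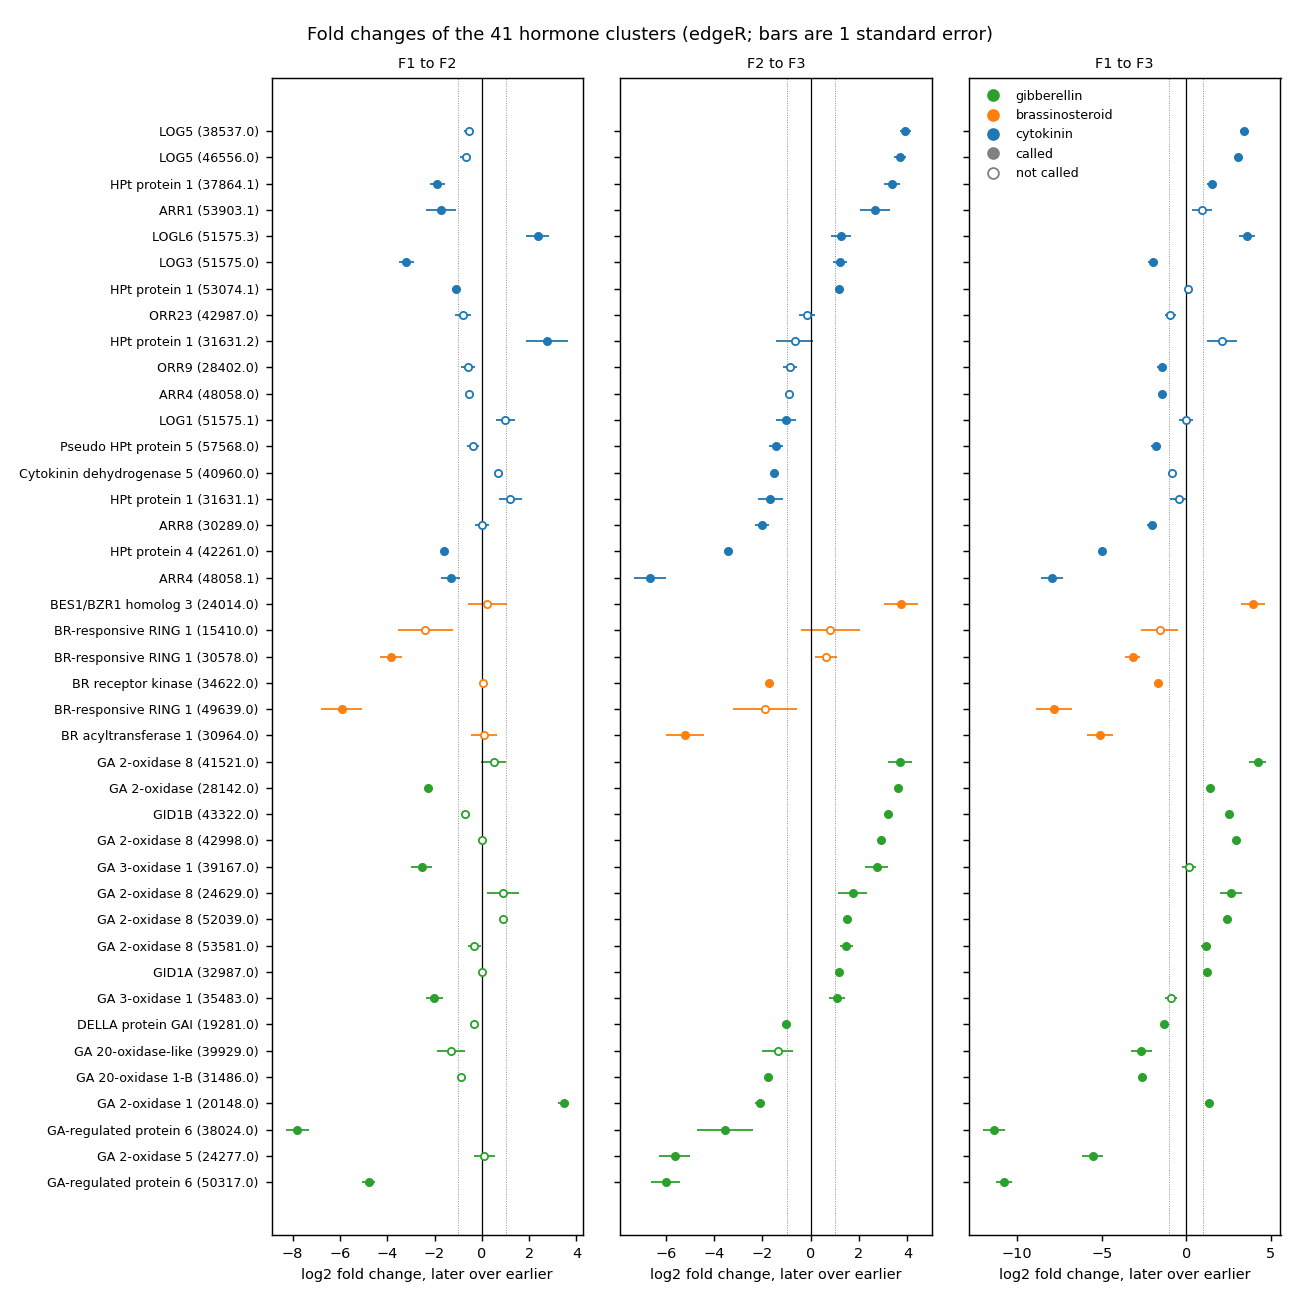
Log2 fold change of each of the 41 hormone clusters (rows, cluster number in brackets) from F1 to F2, F2 to F3 and F1 to F3, with 1 standard error from edgeR as bars; filled points were called, open points were not, and dotted lines mark a fold change of 2. The 10 rises of gibberellin clusters from F2 to F3 and the fall of both gibberellin-regulated peptides from F1 to F2 stand out; points of clusters with 0 to 3 counts in a stage depend on the prior count and are no measure of size.

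More gibberellin clusters were called in the later interval than in the earlier one, as was also so over all clusters. Between F1 and F2, 1 of 17 rose and 5 fell (background 22.0% higher and 18.8% lower), 35.3% in all beside 40.8% of all clusters. From F2 to F3, 10 rose and 6 fell (background 29.5% higher and 35.8% lower). This was a total of 16 of 17, 94.1% beside 65.3% of all clusters. One of these falls, that of the peptide Cluster-38024.0, rests on 4 against 0 counts in overlapping libraries and is lost without any one of F2 replicates 1 and 2 and F3 replicates 1 and 2. DESeq2 and a fit of only the 2 stages compared gave 10 rises and 4 falls. From F1 to F3, 9 rose and 6 fell (background 35.0% higher and 34.7% lower). The lean of the background depends on scaling. With RLE scaling, 4330 of all clusters were called higher and 5316 lower from F1 to F2, against 5361 and 4594 with TMM. From F2 to F3 these were 7898 and 7672, against 7184 and 8739. The gibberellin clusters gave 1 rise and 6 falls, then 10 rises and 5 falls, with RLE scaling. The median log2 fold change of the 17 was -0.32, 1.17 and 1.16 from F1 to F2, F2 to F3 and F1 to F3. Their highest mean was at F3 in 9, at F1 in 6 and at F2 in 2, whereas over all clusters 41.1% were highest at F3, 30.3% at F1 and 28.6% at F2.

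Synthesis of the active hormone was represented by 2 pairs of clusters with different courses. The main 20-oxidase (Cluster-31486.0, named Gibberellin 20 oxidase 1-B), which makes the precursors of active gibberellin, had 20.1, 18.5 and 18.9 FPKM in the F1 libraries, 9.78, 10.3 and 10.2 at F2, and 3.19, 3.31 and 3.53 at F3. The stages did not overlap, and the level declined at each step. Its log2 fold change was -0.88 ± 0.09 (standard error) from F1 to F2, under the fold threshold with an adjusted p of 5.06e-05, and -1.76 ± 0.09 from F2 to F3 (adjusted p = 3.69e-07). Scaling by RLE or DESeq2 in place of TMM takes the first step to -1.05 in both cases, past the threshold. A 20-oxidase-like cluster (Cluster-39929.0) of lower level, 1.84 ± 0.48 FPKM at F1 (SD, n = 3), went the same way to 0.30 ± 0.28 at F3 (log2 fold change -2.66 ± 0.64, adjusted p = 0.00469).

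The 2 clusters of 3-oxidase, which makes the bioactive forms, were instead lowest at F2. Cluster-35483.0 had 4.25, 4.23 and 3.89 FPKM at F1, 1.42, 1.00 and 0.53 at F2, and 3.00, 1.83 and 2.30 at F3. Cluster-39167.0 had 1.95, 1.93 and 2.04 at F1, 0.34, 0.12 and 0.54 at F2, and 2.35, 2.49 and 2.44 at F3. In both, every F2 library was below every F1 and F3 library. From F1 to F2 they fell by 2.01 ± 0.35 and 2.55 ± 0.46 on the log2 scale (adjusted p = 0.00138 and 0.00165). From F2 to F3 they rose by 1.09 ± 0.35 and 2.72 ± 0.46 (adjusted p = 0.0194 and 0.000711). The first of these rises is close to the threshold and is no longer called without F2 replicate 3 or without F3 replicate 1 (0.81 and 0.86).

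Inactivation gave the largest group, 8 clusters of 2-oxidase (Gibberellin 2-beta-dioxygenase). There were 7 rises and 1 fall from F1 to F3 (background 35.0% higher and 34.7% lower). From F2 to F3 there were 6 rises and 2 falls (background 29.5% higher and 35.8% lower). Their summed level was 27.2, 30.4 and 30.1 FPKM in the F1 libraries, 40.3, 41.4 and 41.3 at F2, and 151.6, 157.8 and 142.2 at F3. The sum was thus raised slightly at F2 and greatly at F3. Set against the summed 20-oxidase clusters in the same library, it was 1.40 ± 0.16 times their level at F1, 3.79 ± 0.04 times at F2 and 41.4 ± 2.68 times at F3 (mean ± SD of 3 libraries).

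Most of the F3 level came from 5 clusters matched to one protein, Gibberellin 2-beta-dioxygenase 8 of Arabidopsis, an enzyme that acts on the early, longer-chain gibberellins. All 5 rose from F2 to F3 and from F1 to F3 (background 29.5% and 35.0% higher). None was called from F1 to F2 (background 40.8% called). Cluster-42998.0 had 5.21, 3.47 and 5.07 FPKM at F1, 4.32, 5.41 and 5.44 at F2, and 45.2, 48.2 and 47.1 at F3. The F1 and F2 libraries overlapped and the F3 libraries stood apart, with a log2 fold change of 2.90 ± 0.16 from F2 to F3 (adjusted p = 4.02e-07). Cluster-52039.0 had 6.22, 7.99 and 6.53 at F1, 13.02, 12.6 and 12.1 at F2, and 41.2, 40.9 and 39.0 at F3. It was the only one of the 5 whose F1 and F2 libraries did not overlap (0.90 ± 0.11, adjusted p = 0.000196, under the fold threshold), and it rose by 1.52 ± 0.11 from F2 to F3. Cluster-41521.0 had 0.59, 2.40 and 1.81 at F1, 1.36, 1.96 and 3.51 at F2, and 31.8, 38.7 and 26.9 at F3, a rise of 3.69 ± 0.50 from F2 to F3 (adjusted p = 0.000188). The other 2, Cluster-53581.0 and Cluster-24629.0, reached 9.71 ± 0.45 and 1.29 ± 0.75 FPKM at F3. The rise of Cluster-24629.0 from F2 to F3 rests on 37 and 131 counts and is lost without any one of F2 replicate 1, F2 replicate 3 or F3 replicate 1. Together the 5 made up 59.2% ± 0.64 of the summed 2-oxidase FPKM at F1, 57.2% ± 3.85 at F2 and 86.9% ± 0.93 at F3 (mean ± SD, n = 3). Whether the 5 clusters are separate genes or pieces of fewer genes was not tested.

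The remaining 3 clusters of 2-oxidase each had a course of its own. Cluster-28142.0, matched to the enzyme of runner bean, had 5.67, 5.95 and 5.87 FPKM at F1, 1.16, 1.36 and 1.36 at F2, and 18.2, 17.6 and 14.4 at F3. It thus shared the dip of the 3-oxidase clusters at F2, falling by 2.26 ± 0.16 and then rising by 3.62 ± 0.16 (adjusted p = 5.08e-06 and 1.19e-07). Cluster-20148.0, matched to pea 2-oxidase 1, peaked at F2. It had 0.99, 1.31 and 1.30 FPKM at F1, 12.5, 11.3 and 9.27 at F2, and 3.41, 2.22 and 3.23 at F3, with log2 fold changes of 3.45 ± 0.23 and -2.12 ± 0.21 (adjusted p = 3.27e-06 and 2.30e-05). Cluster-24277.0, matched to rice 2-oxidase 5, had 4.56, 4.90 and 5.20 at F1, 4.76, 5.68 and 5.26 at F2, and 0, 0.08 and 0.27 at F3. It fell by 5.64 ± 0.62 from F2 to F3 (adjusted p = 4.89e-05) on 8 counts in all at F3.

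Perception changed in the same interval as the 2-oxidases. GID1A (Cluster-32987.0) had 37.8, 39.1 and 36.4 FPKM at F1, 36.5, 37.0 and 38.0 at F2, and 89.7, 93.6 and 96.0 at F3. GID1B (Cluster-43322.0) had 13.2, 15.2 and 13.4 at F1, 8.36, 8.53 and 8.27 at F2, and 82.0, 86.0 and 88.4 at F3. Both receptor clusters were thus far higher at F3 than at either earlier stage, and GID1B was also lower in every F2 library than in every F1 library. From F2 to F3, GID1A rose by 1.17 ± 0.06 and GID1B by 3.18 ± 0.09 (adjusted p = 4.30e-07 and 6.47e-09). Per length of transcript, GID1A was 2.72 ± 0.14 times as high as GID1B at F1, 4.43 ± 0.14 times at F2 and 1.09 ± 0.0035 times at F3 (mean ± SD, n = 3).

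The 1 DELLA cluster, a match of tomato GAI (Cluster-19281.0), went the opposite way. It had 72.1, 72.4 and 76.2 FPKM at F1, 57.3, 57.5 and 57.8 at F2, and 31.2, 32.6 and 30.4 at F3, with no overlap between stages. It fell by 1.35 ± 0.06 from F1 to F3 (adjusted p = 6.49e-08) and by 1.04 ± 0.06 from F2 to F3 (adjusted p = 4.60e-07). The second value lies at the fold threshold, and it is -0.89 to -0.85 and not called under 6 other settings, among them DESeq2 and RLE scaling. The summed receptor FPKM was 0.70 ± 0.05 times the DELLA FPKM at F1, 0.79 ± 0.01 times at F2 and 5.69 ± 0.33 times at F3 (mean ± SD, n = 3).

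The gibberellin-regulated peptides declined steeply. Both clusters match GASA6, a small cysteine-rich secreted peptide that in Arabidopsis promotes cell elongation. Cluster-50317.0 had 69.1, 66.6 and 62.1 FPKM at F1, 2.43, 2.93 and 1.37 at F2, and 0, 0 and 0.10 at F3. It fell by 4.79 ± 0.29 from F1 to F2 (adjusted p = 2.19e-06). At F3 it had 1 count against 85 at F2 and 2256 at F1. The F2 level was 81.5 times that of F3, with a counting interval of 14.2 to 3258 (exact, 95%). Cluster-38024.0 had 41.2, 40.9 and 32.6 FPKM at F1, 0.21, 0.20 and 0 at F2, and 0 in every F3 library. It fell by 7.80 ± 0.49 from F1 to F2 (adjusted p = 1.81e-05), on 945 and 4 counts. At F3 it was at least 108-fold lower than at F1, taking a floor of 3 counts per library. Between F2 and F3 both stages lay under that floor and no fold is given. A cluster of the same number matched to RSI-1 (Cluster-38024.2), a related peptide of tomato, kept 3.23 ± 0.82 FPKM at F3.

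**Figure D2:**
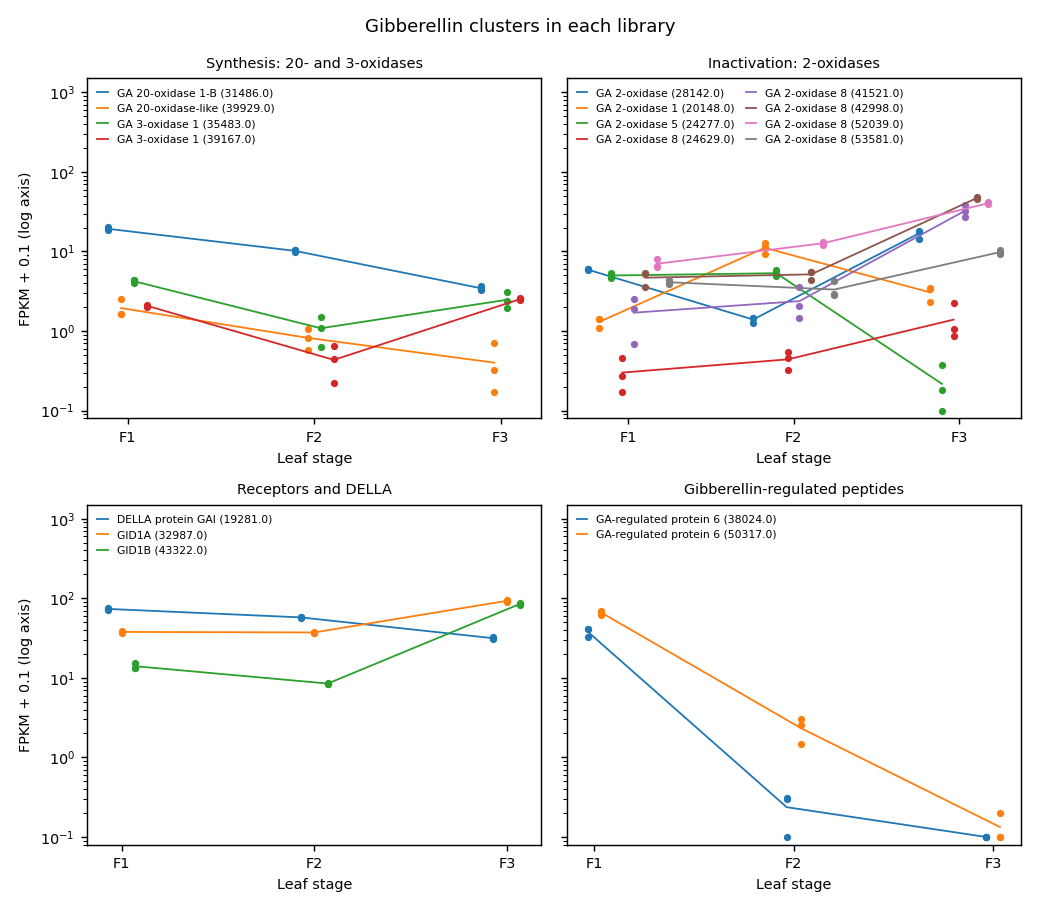
FPKM + 0.1 (log axis) of the 17 gibberellin clusters in the 9 libraries by leaf stage; points are libraries and lines join stage means. The 5 clusters of 2-oxidase 8 and both GID1 receptors are highest at F3, the 3-oxidases are lowest at F2, and the peptides are near the lower edge at F3.

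Other genes of the pathway were read from a list of 44 clusters, chosen by KEGG orthologs and names. They gave 4 rises and 9 falls from F1 to F2, 18 rises and 17 falls from F1 to F3, and 15 rises and 15 falls from F2 to F3, with median log2 fold changes of -0.02, -0.47 and 0.04. The shares called were 29.5%, 79.5% and 68.2%, beside 40.8%, 69.7% and 65.3% of all clusters. The orthologs also took in general carboxylesterases and GRAS proteins, so only 8 of the 44 were matched by name: the synthesis enzymes, GID2 and Scarecrow-like proteins 3 and 32. Other Scarecrow-like proteins came in as orthologs and are not among these 8, which gave 2 rises and 4 falls from F1 to F3. The clusters described here and in the other lists were chosen after their values were seen. Ent-kaurenoic acid oxidase 2 (Cluster-49813.0), which makes the first gibberellin of the pathway, had 11.2 ± 1.26, 8.48 ± 0.78 and 1.83 ± 0.26 FPKM at F1, F2 and F3 and fell by 2.74 from F2 to F3 (adjusted p = 1.11e-06). Earlier steps of synthesis did not share 1 direction. The named Ent-kaurene oxidase (Cluster-19885.1) fell from 0.86 ± 0.03 FPKM at F1 to 0.07 ± 0.04 at F3 (adjusted p = 0.000665), whereas 4 clusters with its ortholog but no Swiss-Prot match rose: Cluster-13286.1, Cluster-13286.2, Cluster-13286.3 and Cluster-13286.4 had means of at most 0.10 FPKM at F1 and F2 and of 21.7 ± 1.45, 17.6 ± 2.55, 19.3 ± 0.60 and 4.77 ± 1.43 at F3. Ent-kaurene synthase TSP4 (Cluster-45196.0), which acts before them, had 0.77 ± 0.13, 1.28 ± 0.24 and 3.06 ± 0.47 FPKM and rose by 1.53 from F1 to F3 (adjusted p = 0.000607). GID2 (Cluster-38739.0), the F-box protein that marks DELLA for destruction in rice, had 3.33 ± 0.42, 1.16 ± 0.09 and 1.59 ± 0.34 and fell by 1.48 from F1 to F2 (adjusted p = 0.00344). Scarecrow-like protein 3 (Cluster-33187.0), which in Arabidopsis opposes DELLA, had 2.09 ± 0.16, 3.64 ± 0.35 and 7.77 ± 0.80 FPKM and rose by 1.77 from F1 to F3 (adjusted p = 8.44e-06).

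Brassinosteroid clusters were few, and most were lower at F3 than at F1. The 6 clusters gave 0 rises and 2 falls from F1 to F2 (33.3% called beside 40.8% of all clusters), 1 rise and 4 falls from F1 to F3 (83.3% beside 69.7%), and 1 rise and 2 falls from F2 to F3 (50% beside 65.3%). At an unadjusted p under 0.05, 0 were higher and 2 lower at F2 than at F1. The medians were -1.17, -2.44 and -0.55 on the log2 scale, and 4 of the 6 had their highest mean at F1.

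The receptor was the only one of the 6 above 10 FPKM. The BRI1 match (Cluster-34622.0), a leucine-rich-repeat kinase that binds brassinosteroid, had 35.3, 27.9 and 38.5 FPKM at F1, 32.6, 34.6 and 32.3 at F2, and 9.70, 10.9 and 12.02 at F3. The F1 and F2 libraries overlapped and every F3 library was lower. It did not pass the test from F1 to F2 (0.04 ± 0.11, adjusted p = 0.783) and fell by 1.74 ± 0.12 from F2 to F3 (adjusted p = 1.70e-06). The 1 transcription factor cluster, BEH3 of the BES1/BZR1 family (Cluster-24014.0), moved the other way at a low level. It had 0.19, 0.07 and 0.24 FPKM at F1, 0.14, 0.06 and 0.55 at F2, and 4.12, 1.98 and 2.70 at F3. It rose by 3.72 ± 0.70 from F2 to F3 (adjusted p = 0.00133), on 9 and 141 counts.

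Of the 6 clusters, 3 match BRH1, a RING-finger protein whose Arabidopsis transcript is lowered by brassinosteroid. Cluster-30578.0 had 8.60, 8.76 and 9.51 FPKM at F1, 0.83, 0.27 and 0.71 at F2, and 1.35, 0.62 and 1.22 at F3. It fell by 3.83 ± 0.46 from F1 to F2 (adjusted p = 0.000153), and the F2 and F3 libraries overlapped. Cluster-49639.0 had 3.05, 4.40 and 3.47 at F1, 0.12, 0 and 0 at F2, and 0 throughout F3. It had 82 counts at F1 and 1 at F2, an F1 level 87.9 times that of F2 with a counting interval of 15.3 to 3514 (exact, 95%), and at F3 it was at least 9.24-fold lower than at F1. Cluster-15410.0 had 3.34, 3.98 and 2.59 at F1, 0, 0.48 and 1.42 at F2, and 0, 1.74 and 1.86 at F3. All its F1 libraries were the highest, yet it was called in none of the 3 comparisons (-2.38 ± 1.17 from F1 to F2, adjusted p = 0.115). The 3 matches were thus each highest at F1 in every library. The acyltransferase BRAT1 (Cluster-30964.0), which in Arabidopsis inactivates brassinosteroids by conjugation, had 1.14, 1.07 and 0.80 FPKM at F1, 1.03, 1.22 and 0.82 at F2, and 0, 0.08 and 0 at F3. Its F2 level was 37.4 times that of F3 (117 against 3 counts, counting interval 12.5 to 184). The KEGG ortholog of this cluster (K15400) is not among the brassinosteroid orthologs used for the list below. Nor are those of the 3 BRH1 matches (K16281 and K16282). The roles of these 4 clusters here thus rest on the name alone.

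**Figure D3:**
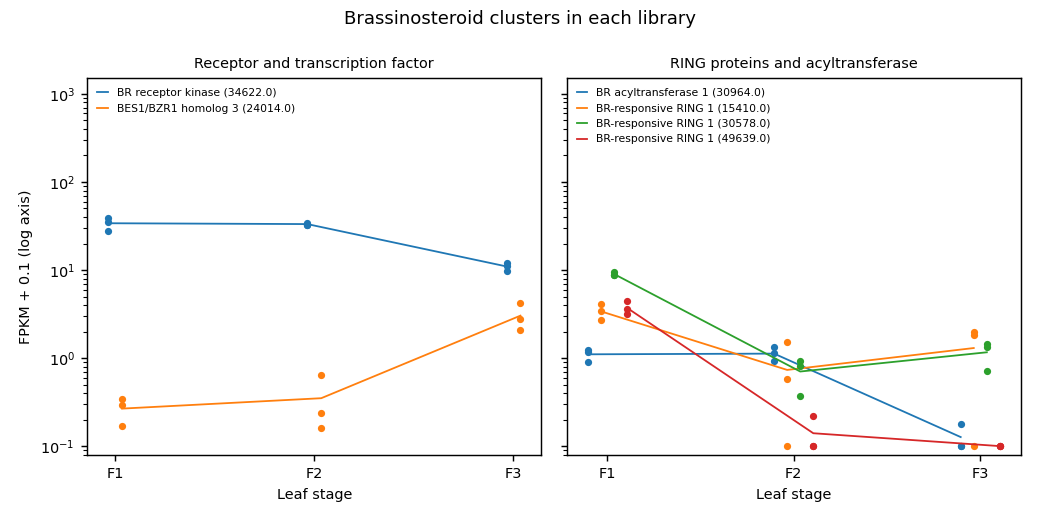
FPKM + 0.1 (log axis) of the 6 brassinosteroid clusters in the 9 libraries by leaf stage; points are libraries and lines join stage means. The receptor holds its level from F1 to F2 and is lower at F3, the BES1/BZR1 homolog is highest at F3, and the 3 RING-protein clusters are highest at F1.

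The list of other brassinosteroid genes held 88 clusters, with 12 rises and 25 falls from F1 to F2, 23 rises and 41 falls from F1 to F3, and 25 rises and 32 falls from F2 to F3 (medians -0.28, -0.98 and -0.56). The shares called, 42%, 72.7% and 64.8%, were near those of all clusters, 40.8%, 69.7% and 65.3%. Only 14 were matched by the name of a pathway step, the rest having come in as orthologs with names of other kinases, cyclins and cell-wall enzymes. The 14 gave 2 rises and 5 falls from F1 to F3. Among enzymes of synthesis, the Delta(24)-sterol reductase (Cluster-44895.0), which makes the plant sterols that serve as precursors, had 14.6 ± 0.87, 3.47 ± 0.17 and 2.46 ± 0.66 FPKM at F1, F2 and F3 and fell by 2.06 from F1 to F2 (adjusted p = 2.41e-05). CYP90A1 (Cluster-45050.0), a steroid oxidase of the pathway, was by contrast called in no comparison, at 94.2 ± 19.1, 113 ± 1.86 and 63.9 ± 2.34 FPKM. Of 2 clusters of CYP85A, which completes the synthesis, Cluster-57302.0 had 9.85 ± 0.29, 2.22 ± 0.31 and 6.09 ± 0.85 FPKM, with a fall of 2.11 and a rise of 1.19 (adjusted p = 3.15e-06 and 5.70e-05). Its low point at F2 matched in stage that of the gibberellin 3-oxidases. The other, Cluster-46759.1, had 3.10 ± 0.17 and 1.22 ± 0.17 FPKM at F1 and F2 and was at 0 in every F3 library. CYP734A1 (Cluster-19273.0), which inactivates brassinosteroids, had 2.09 ± 0.26, 0.64 ± 0.01 and 0.39 ± 0.05 FPKM and fell by 2.53 from F1 to F3 (adjusted p = 3.33e-05). BKI1 (Cluster-25655.0), an inhibitor that sits on BRI1 in the absence of hormone, had 84.6 ± 6.0, 87.1 ± 2.48 and 29.9 ± 1.14 FPKM. Its fall of 1.71 from F2 to F3 (adjusted p = 2.23e-08) stood beside that of the BRI1 match.

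Cytokinin clusters moved in both directions. The 18 clusters gave 2 rises and 6 falls from F1 to F2 (44.4% called beside 40.8% of all clusters), 4 rises and 7 falls from F1 to F3 (61.1% beside 69.7%), and 7 rises and 7 falls from F2 to F3 (77.8% beside 65.3%), with medians of -0.57, -0.65 and -0.76. The highest mean was at F1 in 8, at F2 in 4 and at F3 in 6. The count from F1 to F2 is 5 rather than 8 under limma on log2(FPKM + 1). From F1 to F3, 3 of the 5 LOG clusters rose and 1 fell, whereas all 4 clusters of type-A response regulators fell (background 35.0% higher and 34.7% lower).

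LOG enzymes release free cytokinin from its ribotide. Their 5 clusters summed to 24.6, 25.5 and 23.6 FPKM in the F1 libraries, 20.9, 19.3 and 14.6 at F2, and 94.2, 100.9 and 101.1 at F3. Most of the F3 sum came from 2 clusters matched to LOG5. Cluster-46556.0 had 8.19, 6.69 and 6.45 FPKM at F1, 5.32, 3.88 and 3.30 at F2, and 53.1, 57.0 and 54.7 at F3. Cluster-38537.0 had 1.74, 1.81 and 2.24 at F1, 1.45, 0.97 and 1.51 at F2, and 20.7, 23.4 and 21.6 at F3. The FPKM of Cluster-46556.0 are higher than its deposited length would give. At F3 it had 1663 counts on 910 bases, against 1436 on 1145 for Cluster-38537.0. Both were lower in every F2 library than in every F1 library, by less than 2-fold (adjusted p = 0.0371 and 0.0572), and then rose from F2 to F3 by 3.70 ± 0.24 and 3.92 ± 0.22 (adjusted p = 1.36e-06 and 4.50e-07).

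The other 3 LOG clusters share 1 cluster number and differed in course. Cluster-51575.0, matched to LOG3, had 10.4, 12.4 and 11.1 FPKM at F1, 0.93, 1.18 and 1.56 at F2, and 2.5, 2.45 and 4.5 at F3. It fell by 3.19 ± 0.31 from F1 to F2 (adjusted p = 3.80e-05) and rose by 1.22 ± 0.30 from F2 to F3 (adjusted p = 0.0057), a rise not called without F3 replicate 3 (0.85). Cluster-51575.3, matched to LOGL6 of rice, had 0.72, 1.93 and 0.96 at F1, 7.26, 5.74 and 4.31 at F2, and 13.2, 14.9 and 18.6 at F3. It rose by 2.36 ± 0.48 over the first step and by 3.60 ± 0.48 over both (adjusted p = 0.00315 and 0.000138), on 12, 65 and 161 counts. Its rise of 1.24 ± 0.41 from F2 to F3 (adjusted p = 0.023) is lost without F2 replicate 2, F2 replicate 3, F3 replicate 2 or F3 replicate 3. Cluster-51575.1, matched to LOG1, was highest at F2, with 5.77 ± 1.78 FPKM against 3.03 ± 0.47 at F1 and 3.20 ± 1.59 at F3, and its libraries of F2 and F3 overlapped. The clusters differ in length, 1130, 385 and 975 bases for LOG3, LOGL6 and LOG1. Summed as FPKM the number had 15.5 ± 1.32, 12.8 ± 2.57 and 21.9 ± 2.44 at F1, F2 and F3. Summed as counts it had log2 fold changes of -0.91 from F1 to F2 and 0.01 from F2 to F3. In counts, LOGL6 did not lead at F3 (161, against 200 for LOG3 and 175 for LOG1). The longest cluster led in FPKM at F1 and the shortest at F3, and the 2 kinds of sum differ in direction from F1 to F3. Whether the clusters are separate genes was not tested.

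**Figure D4:**
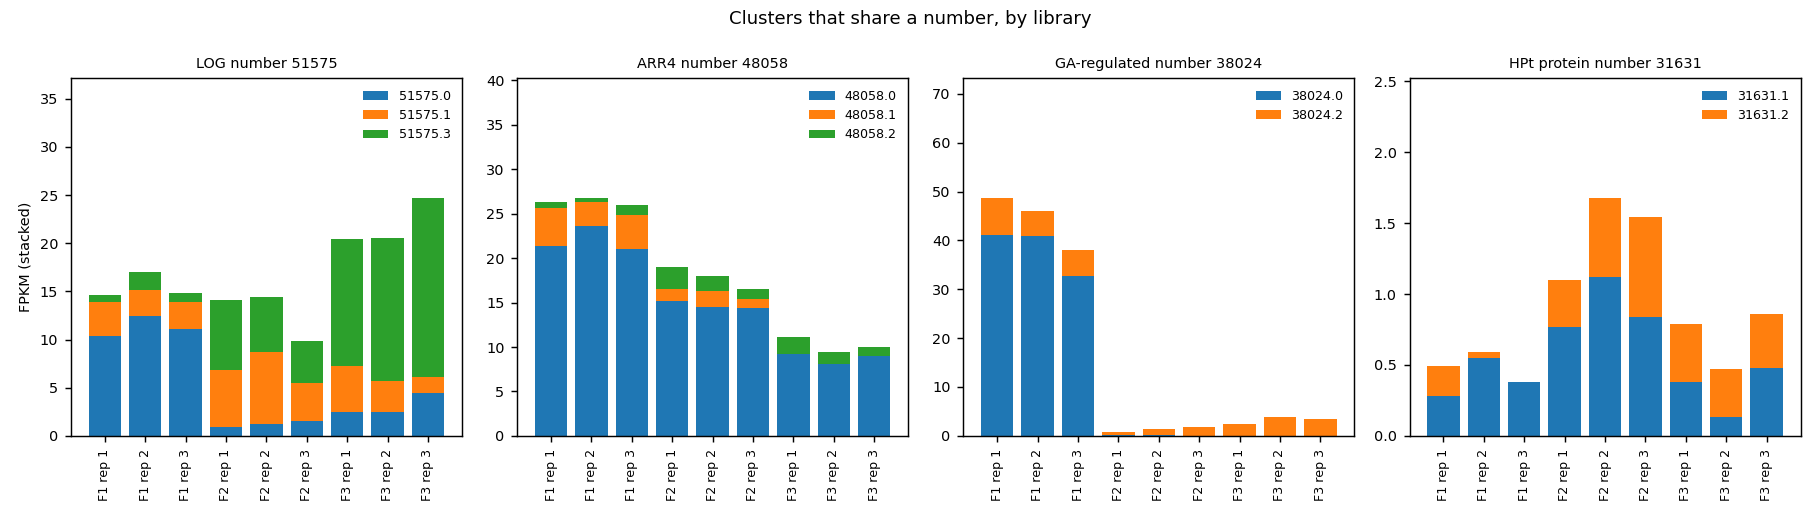
Stacked FPKM by library for 4 cluster numbers that hold 2 or more clusters of the table; colours are the single clusters. In the LOG number, Cluster-51575.0 makes up most of the bar at F1 and Cluster-51575.3 at F3, while in the ARR4 number Cluster-48058.0 is the largest throughout; Cluster-38024.2 (RSI-1) and Cluster-48058.2 (no Swiss-Prot match) are not among the 41.

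The 1 cytokinin dehydrogenase, CKX5 (Cluster-40960.0), had 6.65, 5.94 and 8.85 FPKM at F1, 11.1, 10.5 and 11.5 at F2, and 4.66, 4.35 and 4.55 at F3. It was highest in every F2 library and fell by 1.53 ± 0.13 from F2 to F3 (adjusted p = 8.50e-06). The summed LOG FPKM was 3.55 ± 0.83 times the dehydrogenase FPKM at F1, 1.66 ± 0.34 times at F2 and 21.9 ± 1.51 times at F3 (mean ± SD, n = 3). The LOG sum holds Cluster-46556.0, whose FPKM exceed what its deposited length would give, so the size of the ratio depends on them.

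Phosphotransfer proteins carry the phosphate from the receptors to the response regulators. Their 6 clusters summed to 63.6 ± 6.01 FPKM at F1, 25.2 ± 0.94 at F2 and 34.6 ± 2.46 at F3, with single courses that differed. AHP4 (Cluster-42261.0) had 39.0, 42.0 and 33.8 FPKM at F1, 12.05, 11.9 and 12.6 at F2, and 1.14, 1.60 and 1.13 at F3. It fell at both steps, by 1.59 ± 0.16 and 3.41 ± 0.19 (adjusted p = 5.19e-05 and 4.95e-07). Cluster-53074.1, matched to rice OHP1, had 18.0, 16.4 and 15.6 at F1, 7.56, 6.53 and 8.55 at F2, and 17.8, 17.5 and 21.6 at F3. Cluster-37864.1, matched to AHP1, had 5.19, 4.02 and 3.15 at F1, 0.81, 1.40 and 1.00 at F2, and 11.1, 14.7 and 11.03 at F3. Both were lowest in every F2 library. They fell by 1.10 ± 0.15 and 1.88 ± 0.31 from F1 to F2 and rose by 1.16 ± 0.15 and 3.36 ± 0.32 from F2 to F3, with adjusted p between 1.86e-05 and 0.00108. In FPKM, AHP4 made up the largest part of the sum at F1 and the clusters of OHP1 and AHP1 at F3. In F1 replicate 1, AHP4 had 39.0 FPKM on 532 counts and a length of 1823 bases. OHP1 had 18.0 FPKM there on 299 counts and 1007 bases. The FPKM of AHP4 are thus higher than its deposited length would give, and its rank at F1 depends on them. The pseudo-phosphotransfer protein PHP5 (Cluster-57568.0), of a kind that lacks the phosphate-accepting histidine, had 4.10 ± 0.28, 2.94 ± 0.41 and 1.41 ± 0.68 FPKM and fell by 1.43 ± 0.28 from F2 to F3 (adjusted p = 0.0016). Cluster-31631.1 and Cluster-31631.2, also matched to AHP1, stayed under 1.2 FPKM in every library, and each was called in 1 comparison.

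Response regulators were assigned to type A or type B by their KEGG orthologs. The 4 type-A clusters all fell from F1 to F3. ARR4 (Cluster-48058.0) had 21.4, 23.6 and 21.0 FPKM at F1, 15.2, 14.4 and 14.4 at F2, and 9.27, 8.08 and 9.04 at F3. It declined at each step without overlap, by 0.54 ± 0.08 and 0.91 ± 0.08, both under the fold threshold, and by 1.45 ± 0.08 from F1 to F3 (adjusted p = 3.48e-07). ARR8 (Cluster-30289.0) had 9.17, 10.2 and 7.53 at F1, 9.71, 7.10 and 9.0 at F2, and 1.66, 3.25 and 2.30 at F3. Its libraries of F1 and F2 overlapped, and it fell by 2.02 ± 0.30 from F2 to F3 (adjusted p = 0.000335). ORR9 (Cluster-28402.0) had 4.82, 4.48 and 3.14 at F1, 3.43, 3.22 and 2.77 at F2, and 1.31, 1.47 and 2.09 at F3, a fall of 1.45 ± 0.30 from F1 to F3 (adjusted p = 0.00214). The second ARR4 cluster (Cluster-48058.1) had 4.22, 2.70 and 3.85 FPKM at F1, 1.34, 1.83 and 1.02 at F2, and 0, 0.05 and 0 at F3. With 324 counts at F2 and 3 at F3, its F2 level was 104 times that of F3 (counting interval 35.1 to 505). Summed over its number, which also holds a cluster with no Swiss-Prot match, ARR4 had 26.4 ± 0.42, 17.9 ± 1.23 and 10.2 ± 0.89 FPKM and a log2 change of -1.62 from F1 to F3 (adjusted p = 2.94e-10).

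The 2 type-B clusters were low. ARR1 (Cluster-53903.1) had 0.81, 0.19 and 0.48 FPKM at F1, 0.09, 0.12 and 0.25 at F2, and 1.57, 0.65 and 0.81 at F3, and rose by 2.65 ± 0.63 from F2 to F3 (adjusted p = 0.00497). Its fall from F1 to F2 (1.72 ± 0.63, adjusted p = 0.0452) came from overlapping libraries and is lost when any of 6 libraries is left out. ORR23 (Cluster-42987.0) had 1.02 ± 0.07, 0.57 ± 0.24 and 0.58 ± 0.03 FPKM and was called in no comparison. The type-A and type-B clusters thus differed in level at F1, from 3.59 to 22.0 FPKM against 0.49 to 1.02.

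**Figure D5:**
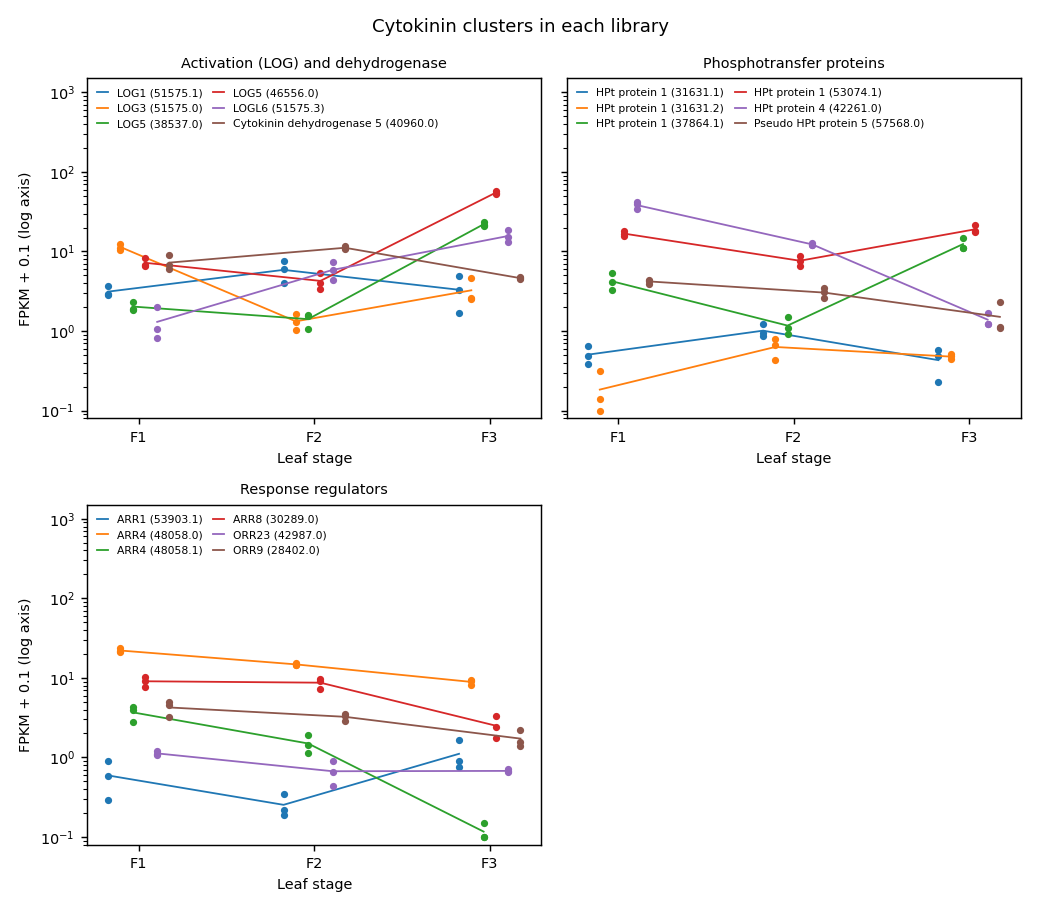
FPKM + 0.1 (log axis) of the 18 cytokinin clusters in the 9 libraries by leaf stage; points are libraries and lines join stage means. Both LOG5 clusters rise at F3, the phosphotransfer protein 4 declines at each step while 2 clusters of phosphotransfer protein 1 dip at F2, and the type-A regulators (ARR4, ARR8 and ORR9) are lowest at F3.

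The list of other cytokinin genes held 39 clusters, with 10 rises and 9 falls from F1 to F2, 14 rises and 15 falls from F1 to F3, and 14 rises and 12 falls from F2 to F3 (medians 0.13, -0.55 and -0.55). The shares called were 48.7%, 74.4% and 66.7%, beside 40.8%, 69.7% and 65.3% of all clusters. Of these, 19 were matched by the name of a step, which gave 7 rises and 7 falls from F1 to F3. Zeatin O-glucosyltransferase (Cluster-47444.0), which stores zeatin as an inactive glucoside, had 11.5, 11.3 and 12.2 FPKM at F1, 27.5, 25.0 and 27.1 at F2, and 233, 232 and 234 at F3. It rose at both steps, by 1.09 ± 0.07 and 2.95 ± 0.07 (adjusted p = 2.62e-06 and 3.26e-09), and at F3 its mean of 233 FPKM lay above every LOG cluster. Isopentenyltransferase 3, which makes the first cytokinin ribotide, had 2 clusters of one number with opposite courses. Cluster-50521.1 fell from 22.6 ± 2.51 FPKM at F1 to 7.75 ± 0.56 at F3 (-1.66, adjusted p = 6.92e-06), and Cluster-50521.0 rose from 1.75 ± 0.51 to 4.94 ± 0.22 (1.42, adjusted p = 0.00289). Of the receptors, Histidine kinase 2 (Cluster-19487.176) had 9.65 ± 0.97, 11.6 ± 0.46 and 4.38 ± 0.08 FPKM and the main cluster of Histidine kinase 4 (Cluster-50980.5) had 12.8 ± 0.61, 16.5 ± 0.48 and 7.05 ± 0.21. Both fell from F2 to F3, by 1.56 and 1.40 (adjusted p = 1.87e-07 and 1.35e-07). The cytokinin response factors CRF4 (Cluster-36347.0) and CRF5 (Cluster-22991.0) were lowest at F2 and rose from there by 2.54 and 2.66 (adjusted p = 5.43e-06 and 0.00011).

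Across the hormones, a low point at F2 recurred in clusters of different roles. It was called on both sides, with a fall from F1 to F2 and a rise from F2 to F3, in 3 gibberellin clusters (both 3-oxidases and the 2-oxidase Cluster-28142.0), in 0 brassinosteroid clusters and in 4 cytokinin clusters (LOG3, OHP1, AHP1 of Cluster-37864.1 and ARR1). This course was thus called in 7 of 41 clusters, 17.1%, beside 5.34% of all clusters. Of the 7, 3 lose a call on one side without a single library, as given above for the 3-oxidase Cluster-35483.0, LOG3 and ARR1. The opposite course, a rise and then a fall, was called in 1 of 41, the 2-oxidase Cluster-20148.0, which is 2.44% beside 7.94% of all clusters. These courses were chosen for counting after the values were seen. They were counted with TMM scaling only. RLE scaling called more of all clusters lower from F1 to F2 (5316 against 4594) and more higher from F2 to F3 (7898 against 7184). The shares of both courses may therefore differ under other scaling.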

How the data were processed

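Leaves of 3 stages were sequenced as mRNA, 3 libraries per stage, and the stage of each was read from its label. Kits in the labels differ from those in the study's methods, and the labels list genome builds of another species. The assembler, aligner and counter were not given in the sources used here. In all, 1 table of transcript clusters was deposited by the authors. Fragment counts per cluster and library were made by the authors and are raw whole numbers. FPKM per cluster and library, counts scaled by the authors for length and library size, were also deposited. The deposited log2 fold changes and the deposited p-values come from the authors' own DESeq2 comparisons and were not used. Swiss-Prot names (14669 of 24385 clusters) and KEGG orthologs were used as deposited. The table pairs no sequences with the clusters, and no sequence is printed.

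Depth was taken from the slope of counts per FPKM on length over clusters with at least 100 counts. Libraries of a stage differed by more than counting noise (chi-square per degree of freedom 5.80 to 12.6), so none was merged. Counts were fitted in 1 model of all 9 libraries with edgeR 4.0.16 (quasi-likelihood test, TMM over the table, no filter) in R 4.3.3, with Benjamini-Hochberg adjustment over all clusters. The code was tested on simulated data. Where a stage had 0 counts, folds are bounds against a floor of 3 counts per library. Where it had 1 to 3, exact intervals of the ratio are given, and both cover counting error only. Medians of the groups are the same with such clusters at their bounds. Scaling by RLE sets the median of all clusters at 0.00, 0.00 and -0.19 from F1 to F2, F1 to F3 and F2 to F3, against 0.17, 0.00 and -0.37 with TMM, so fold changes near the threshold depend on it.

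Described in full were the 2 most abundant clusters of each hormone and role, and in each hormone and comparison up to 3 of the largest called changes whose libraries did not overlap and whose mean reached 5 FPKM in either stage. This rule gave 28 clusters, and the others of the 41 were described after their values were seen, so that each role is complete. The hormone clusters, the lists of other pathway genes and the tissue markers were chosen with earlier results of these data known.

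Alternatives were DESeq2 1.42.0, RLE scaling, edgeR's filterByExpr, limma 3.58.1 on log2(FPKM + 1) and log2(FPKM + 0.1), fits of only the 2 stages compared, a block for the replicate number, library sizes implied by FPKM, clusters of one number summed, and each library left out in turn. Python 3.11.15 with pandas 2.3.3 and matplotlib 3.10.9 did the remaining steps.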

Additional observations from a re-analysis of the deposited data

How the results depend on the processing

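Over 41 clusters, 3 comparisons and all alternatives, 2106 fold changes kept their side of the threshold, 74 lost the call and 30 gained it. Another 4, called in the main fit (TMM, all 9 libraries), changed direction. The 2106 include uncalled fold changes, whose sign was not followed. All 4 reversals came from summing the clusters of one number: the LOGL6 cluster gave -0.91 from F1 to F2 and -0.90 from F1 to F3, the LOG1 cluster 0.011 from F2 to F3, and the GASA6 cluster that shares its number (Cluster-38024.0) gave 1.12 from F2 to F3. There the summed value is that of the whole number. Summing left 6330, 10145 and 9556 units called from F1 to F2, F1 to F3 and F2 to F3, with fewer units tested, against 9955, 16990 and 15923 clusters, and limma on log2(FPKM + 1) called 5928 from F1 to F2 (2426 higher and 3502 lower, against 5361 and 4594) and 10201 from F2 to F3.

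Cytokinin calls from F1 to F2 fell from 8 to 5 with summed clusters, with limma on log2(FPKM + 1) and with the replicate block, and those from F2 to F3 from 14 to 9 with limma on log2(FPKM + 1). The pseudocount shrinks the fold of low clusters, and otherwise the cause was not tested. The calls lost under the replicate block are those of Cluster-31631.2, Cluster-48058.1 and Cluster-53903.1 from F1 to F2 and of the 2-oxidase 8 cluster Cluster-24629.0 from F2 to F3 (adjusted p = 0.0701 in edgeR), which takes the gibberellin calls from 16 to 15. The numbers are not shown to pair the libraries: deviations of same-numbered libraries correlated at -0.02 to 0.03, and those of other numbers at -0.03 to 0.04. With each library left out in turn, calls ranged from 6 to 7, 15 to 16 and 13 to 16 for gibberellin, 2 to 3, 5 and 3 for brassinosteroid, and 6 to 8, 11 to 12 and 12 to 14 for cytokinin, in the order F1 to F2, F1 to F3 and F2 to F3.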
